A study of Mus musculus with 4 samples.

Results

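Vascular endothelial growth factor (VEGF) signalling was examined in lung endothelial cells through 9 genes: the ligands Vegfa, Vegfb, Vegfc and Pgf, the receptors Kdr and Flt1, the co-receptors Nrp1 and Nrp2, and Esm1, a VEGF-induced proteoglycan of endothelium. The members were chosen by gene symbol, and all 9 were found among the 17915 coding genes of the deposited table and passed the filter on low counts, with estimated counts from 211 to 8716 per library. Every mouse had Cdh5-CreER, a Cre recombinase under the VE-cadherin promoter that tamoxifen switches on, aSMA-LSL-Dre, a second recombinase at the alpha smooth muscle actin gene that becomes available after Cre has acted, and the reporter named NR1 in the labels. All libraries shared this genotype, 5 tamoxifen treatments and 6 weeks of transverse aortic constriction (TAC), a narrowing of the aorta that raises pressure behind it, and no library without TAC was among the samples. Sorted ZsGreen+ endothelial cells without a record of alpha smooth muscle actin activation (2 libraries) were compared with tdTomato+ endothelial cells, in which the gene had been active at some time (2 libraries). The titles call the libraries of each group biological replicates. The labels give no age, sex or number of mice per library, and do not say which mouse or mice each library came from. A p-value here thus speaks only of library-to-library spread, part of which may be technical.

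VEGF ligands are secreted dimers. VEGF-A, made mainly by cells next to vessels but also by endothelium itself, acts through the receptor tyrosine kinase encoded by Kdr (VEGFR2), the main driver of endothelial growth, survival and permeability. The product of Flt1 (VEGFR1) binds VEGF-A tightly but signals weakly, also exists as a secreted form that holds ligand back, and is the receptor for VEGF-B and placental growth factor (the product of Pgf). VEGF-C acts through VEGFR3, the product of Flt4, in lymphatic endothelium, and can act through VEGFR2. Neuropilins present VEGF to these receptors and also bind class 3 semaphorins. In the lung alveolus, aerocytes (aCap), capillary cells specialised for gas exchange, are known for high Kdr and depend on VEGF-A from alveolar type 1 epithelium.

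The libraries held 17050673 to 18574737 estimated counts. Genes that define endothelium were abundant in all of them: Pecam1, chosen after its values were known, ranged from 1809 to 2104 CPM (counts relative to a TMM-scaled library of common size). Of 16 pan-endothelial markers edgeR called 0, with a median log2 fold change of -0.16. In both tdTomato+ libraries 7 lay below both ZsGreen+ libraries (18.2% of all genes) and 1 above (19.9% of all genes). Acta2, the recorded gene, stood at 303.9 and 527.5 CPM in tdTomato+ libraries and 87.6 and 82.9 CPM in ZsGreen+ libraries (log2 fold change 2.29, SE 0.29, edgeR adjusted p = 0.0432). Acta2 was not called when tdTomato+ replicate 2 (1.86, edgeR adjusted p = 0.126) or ZsGreen+ replicate 2 (2.24, edgeR adjusted p = 0.111) was left out. edgeR called 40 of 13177 genes at an adjusted p under 0.05, or 0.304%; without tdTomato+ replicate 1, tdTomato+ replicate 2, ZsGreen+ replicate 1 and ZsGreen+ replicate 2 in turn the count was 17, 4, 304 and 26. Markers of other cells differed between libraries: the summed level of 14 macrophage markers was 5715 and 2699 CPM in tdTomato+ against 3210 and 703.9 CPM in ZsGreen+ libraries, and that of 15 fibroblast markers 332.8 and 570.9 against 203 and 198.7 CPM. edgeR called 0 of the 14 and 0 of the 15, with medians of 1.05 and 0.95 on the log2 scale; without ZsGreen+ replicate 1 it called 7 macrophage markers and 1 fibroblast marker higher. When 1 library was left out the macrophage median ran from 0.42 to 2.35 and the fibroblast median from 0.31 to 1.47, and their part in the values below was not tested.

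Between tdTomato+ and ZsGreen+ cells edgeR's test over all genes called no VEGF member: 0 of 9, against 0.304% of all genes tested. At that share 9 genes would seldom hold a call, so the 0 does not show that levels were equal. At an unadjusted p under 0.05 the count was 1 of 9, Esm1, against 8.77% of all genes. DESeq2 and limma-voom also called 0 of 9 (330 and 33 of 13177 genes), with 0 and 1 at an unadjusted p under 0.05. The median log2 fold change was 0.24 over the 9 members and -0.01 over all genes; the members' median was 0.04 without tdTomato+ replicate 2 and 0.0018 without ZsGreen+ replicate 1. In CPM both tdTomato+ libraries lay above both ZsGreen+ libraries for Flt1, Nrp2, Pgf and Esm1 (4 of 9 members, 19.9% of all genes) and below both for Kdr and Vegfa (2 of 9 members, 18.2% of all genes). In TPM the same 4 genes lay above (28.8% of all genes) and none lay below (8.17% of all genes).

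**Figure D1:**
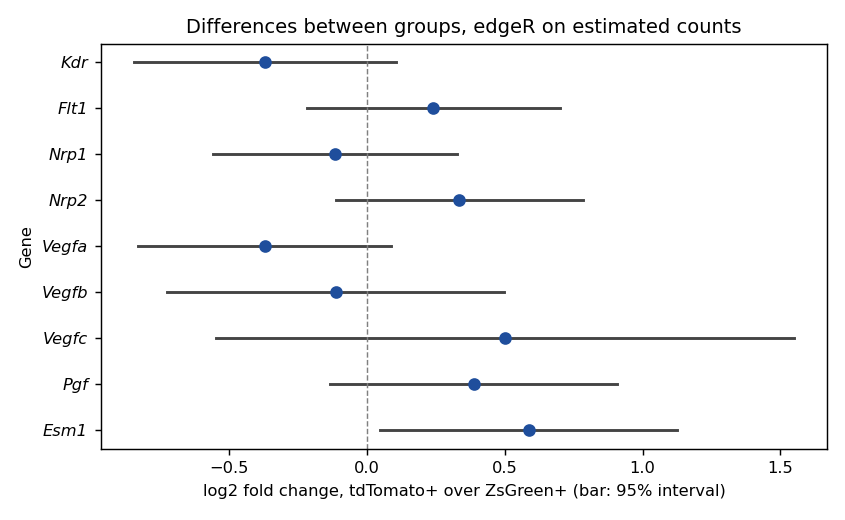
Log2 fold change of each VEGF gene, tdTomato+ over ZsGreen+ cells, from edgeR on the estimated counts; points are estimates and bars their 95% intervals, with 2 libraries per group. The interval of Esm1 alone lies above 0 (0.05 to 1.12), and Vegfc has the widest one.

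All 9 genes were expressed in both populations, and both receptors and Nrp1 were the most abundant of them. On the per-length scale of the deposited TPM values, the mean ± SD over the 4 libraries was 116 ± 14.0 for Nrp1, 112 ± 23.5 for Flt1 and 102 ± 17.5 for Kdr, and these 3 overlapped: Nrp1 exceeded Flt1 in 2 of 4 libraries and Flt1 exceeded Kdr in 2 of 4. Vegfa came next by mean at 64.1 ± 11.5 TPM, below Kdr in all 4 libraries, and then Nrp2 at 48.0 ± 11.9 TPM. These steps did not hold in every library: Vegfa exceeded Nrp2 in 3 of 4, and Nrp2 exceeded Vegfc in 3 of 4. In tdTomato+ replicate 2 Vegfa stood at 49.8 TPM, Nrp2 at 51.5 TPM and Vegfc at 57.7 TPM. Vegfc (38.2 ± 17.8 TPM), Pgf (35.9 ± 8.96 TPM) and Vegfb (34.7 ± 7.04 TPM) did not differ beyond their spread, and Esm1 was lowest of the 9 in every library at 13.7 ± 4.08 TPM. In both tdTomato+ libraries Flt1 ranked first among the 9 and Kdr came after Nrp1, and in both ZsGreen+ libraries the order was Nrp1, Kdr, Flt1.

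**Figure D2:**
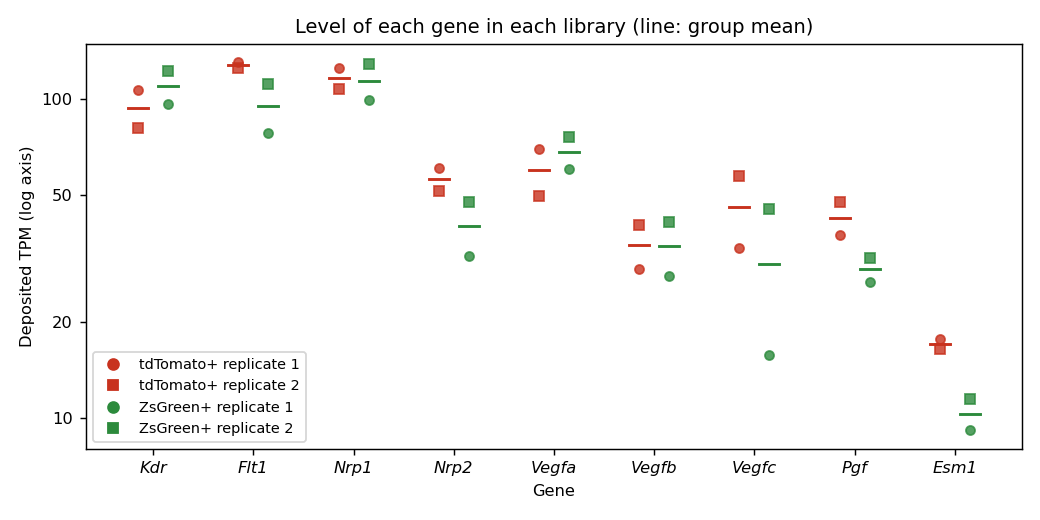
Deposited TPM (log axis) of the 9 genes in each of the 4 libraries; colour marks the group, symbol shape the replicate number and the short line the mean of a group. Kdr, Flt1 and Nrp1 lie between 78.7 and 130.8 TPM, Esm1 between 9.14 and 17.8 TPM.

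The promoters of Kdr, Flt1 and Esm1 are shown because these are both receptors for VEGF-A, whose levels leaned in opposite directions, and the member with the smallest p. ETS transcription factors, which bind a GGAA core, drive much of endothelial gene expression. The stretches are the 250 bases before the start site that RefSeq's promoter table gives (GRCm38.p6), printed 5′ to 3′ along the gene, with GGAA on either strand in capitals (TTCC where it lies on the other strand). They lie at chr5:75978456-75978705 (minus strand) for Kdr, chr5:147726012-147726261 (minus strand) for Flt1 and chr13:113209409-113209658 (plus strand) for Esm1. For Kdr and Flt1 this start site lies downstream of the outer 5′ end of the RefSeq gene, so that both windows fall inside the gene spans given with the values.
Kdr: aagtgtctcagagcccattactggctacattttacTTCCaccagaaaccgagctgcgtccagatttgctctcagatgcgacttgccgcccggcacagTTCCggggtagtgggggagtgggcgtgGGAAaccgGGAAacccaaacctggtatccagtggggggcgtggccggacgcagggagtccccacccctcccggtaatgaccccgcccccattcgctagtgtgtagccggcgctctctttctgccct
Flt1: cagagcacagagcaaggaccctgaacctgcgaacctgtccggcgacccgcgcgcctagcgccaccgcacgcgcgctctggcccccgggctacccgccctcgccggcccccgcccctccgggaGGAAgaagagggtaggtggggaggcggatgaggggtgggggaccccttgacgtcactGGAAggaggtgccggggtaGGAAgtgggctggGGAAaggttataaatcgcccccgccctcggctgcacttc
Esm1: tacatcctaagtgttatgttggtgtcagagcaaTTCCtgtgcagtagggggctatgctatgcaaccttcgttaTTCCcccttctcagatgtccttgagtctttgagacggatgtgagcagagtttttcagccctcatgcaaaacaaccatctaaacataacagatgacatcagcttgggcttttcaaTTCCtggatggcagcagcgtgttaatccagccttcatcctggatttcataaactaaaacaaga
The core was found 4 times before Kdr, 4 times before Flt1 and 3 times before Esm1. Of 27025 mouse promoters of this length, 93.4% hold at least 1, with a median of 3. The hypoxia response core, searched as ACGTG or GCGTG on both strands with overlapping matches counted, was found 2 times before Kdr, 1 time before Flt1 and 1 time before Esm1, and 38.6% of promoters hold it. The GC box, GGGCGG, was found 2 and 3 times before Kdr and Flt1 and not in the Esm1 window, and 32.9% of promoters hold it. The letters TATAAA, of the TATA box, were found 1 time before Flt1 and in neither of the other windows, against 13.0% of promoters. The Esm1 window had a GC content of 44.0%, against 61.6% for Kdr, 70.4% for Flt1 and a median of 52.0% over all promoters. These matches describe the letters only, and binding was not measured.

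Among the ligands, Vegfa, the main ligand of VEGFR2, stood at 132.5 and 100.7 CPM in tdTomato+ libraries and at 146.4 and 155.6 CPM in ZsGreen+ libraries. Both tdTomato+ libraries were lower, replicate 2 most. This is a log2 fold change of -0.37 (SE 0.19, edgeR adjusted p = 0.696), a fold of 0.772 with a 95% interval of 0.562 to 1.06. Without tdTomato+ replicate 2 it was -0.17, and without tdTomato+ replicate 1 it was -0.59. In TPM the groups overlapped, with 69.9 and 49.8 against 60.5 and 76.1. Markers of alveolar type 1 cells, the epithelial source of VEGF-A, summed to 153.5 and 184.9 CPM in tdTomato+ and 174.9 and 171 CPM in ZsGreen+ libraries over 12 genes, none of them at 0 in all libraries, and their part in Vegfa was not tested. Vegfa (NCBI Gene 22339) spans 46016993 to 46032377 on the minus strand of chromosome 17 in GRCm38.

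Pgf encodes placental growth factor, which among the VEGF receptor tyrosine kinases binds VEGFR1 only. It stood at 32.8 and 43.8 CPM in tdTomato+ libraries against 29.5 and 29.1 CPM in ZsGreen+ libraries, with no overlap. Its log2 fold change of 0.39 (SE 0.22) had an edgeR adjusted p of 0.740 and the interval of the fold ran from 0.912 to 1.88. Without tdTomato+ replicate 2 the log2 fold change was 0.19. Vegfb encodes another VEGFR1 ligand, known for its role in fatty acid uptake by endothelium. It stood at 19.3 and 27.8 CPM against 22.9 and 28.1 CPM, so that the groups overlapped and in each group the replicates differed by more than the group means did (log2 fold change -0.11, SE 0.26, edgeR adjusted p = 0.959). Its direction turned without tdTomato+ replicate 1 (0.12), without ZsGreen+ replicate 2 (0.04) and in TPM (0.02). Pgf spans 85166637 to 85177785 on chromosome 12 and Vegfb 6982472 to 6987651 on chromosome 19, both on the minus strand.

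Vegfc, the ligand of VEGFR3 and the main growth factor of lymphatic vessels, was the most variable member. It stood at 35.5 and 63.2 CPM in tdTomato+ libraries and at 20.4 and 49.4 CPM in ZsGreen+ libraries. In each group the library numbered 2 lay above the library numbered 1, and the groups overlapped. The log2 fold change of 0.50 (SE 0.44, edgeR adjusted p = 0.855) had an interval of the fold from 0.683 to 2.93. It was 1.27 without ZsGreen+ replicate 2, 0.85 without tdTomato+ replicate 1, 0.04 without tdTomato+ replicate 2 and 0.0018 without ZsGreen+ replicate 1. Vegfc was the only member with estimated counts that were not whole (646.28, 1204.13, 321.71 and 901.26 in the order tdTomato+ 1 and 2, ZsGreen+ 1 and 2). The gene spans 54077532 to 54186454 on the plus strand of chromosome 8.

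Summed over these 4 ligands, the level was 171 and 195.5 TPM in tdTomato+ libraries and 131 and 194.2 TPM in ZsGreen+ libraries, with overlap. Vegfa made up 40.9% and 25.5% of that sum in tdTomato+ libraries and 46.2% and 39.2% in ZsGreen+ libraries. Pgf made up 21.9% and 24.4% against 20.5% and 16.3%. Vegfa was thus the most abundant ligand in 3 libraries, and in tdTomato+ replicate 2 Vegfc exceeded it, with 29.5% of the sum.

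Kdr, the signalling receptor for VEGF-A, stood at 376.5 and 300.4 CPM in tdTomato+ libraries and at 422.1 and 453.9 CPM in ZsGreen+ libraries. Both tdTomato+ libraries were lower, as for 7 of the 16 pan-endothelial markers (18.2% of all genes), whose part in Kdr was not tested. The estimated log2 fold change of -0.37 (SE 0.20) had an edgeR adjusted p of 0.715, a fold of 0.773 with an interval of 0.556 to 1.07. Without tdTomato+ replicate 2 it was -0.20. In TPM the groups overlapped, at 107.1 and 81.2 against 97 and 122.9. Aerocyte genes, fixed as a list of 14 markers without Kdr, had a median log2 fold change of -0.62, with 1 called lower (Prx, periaxin, -1.74, edgeR adjusted p = 0.0304; 0.137% of all genes were called lower) and none called higher; without either tdTomato+ library 0 were called, and without ZsGreen+ replicate 1 the count was 3. Markers of general capillary cells leaned lower as well, so this was not particular to aerocyte genes. Of 12 tested, 10 estimates lay below 0 and 2 above, with a median log2 fold change of -0.23. edgeR called 0 of the 12 (0.304% of all genes). At an unadjusted p under 0.05, 5 were lower and 0 higher (8.77% of all genes). The part of either list in Kdr was not tested. Kdr spans 75932827 to 75979072 on the minus strand of chromosome 5.

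Flt1, the receptor that binds VEGF-A, VEGF-B and placental growth factor, stood at 421.8 and 445 CPM in tdTomato+ libraries and at 332.3 and 401.8 CPM in ZsGreen+ libraries. Both tdTomato+ libraries were higher, in CPM and in TPM (130.8 and 125.8 against 78.7 and 111.9). The log2 fold change of 0.24 (SE 0.19, edgeR adjusted p = 0.835) gave an interval of the fold from 0.859 to 1.62, and it was 0.11 without ZsGreen+ replicate 1 and 0.38 without ZsGreen+ replicate 2. The table counts whole genes, so the membrane and the secreted form of VEGFR1 could not be told apart. Flt1 spans 147561604 to 147726438 on the minus strand of chromosome 5.

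The balance of the receptors can be read within a library, where its scale cancels. Flt1 over Kdr in TPM was 1.22 and 1.55 in tdTomato+ libraries (1.39 ± 0.231, SD) and 0.811 and 0.91 in ZsGreen+ libraries (0.86 ± 0.0702, SD). Flt1 thus exceeded Kdr in both tdTomato+ libraries and lay below it in both ZsGreen+ libraries. With 2 libraries against 2, an exact two-sided permutation test cannot go below p = 0.333, and no other test of the ratio was run. Of 7 such ratios computed, 5 had no overlap between groups: this one, Nrp1 over Nrp2, Vegfa over Pgf (1.86 and 1.05 against 2.26 and 2.40), Flt4 over Kdr (0.44 and 0.431 against 0.766 and 0.629) and Esm1 over Kdr (0.166 and 0.202 against 0.0942 and 0.0931). Vegfa over Vegfc and Vegfa over Vegfb overlapped. No share of ratios without overlap was computed over other gene pairs, so the count of 5 has no background. For single genes in TPM, 28.8% of all genes lay above and 8.17% below without overlap. The ratios of Flt1, Flt4 and Esm1 over Kdr share their denominator and are not separate results.

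Nrp1, the neuropilin that partners VEGFR2 and is also a semaphorin receptor, stood at 441.8 and 399.4 CPM in tdTomato+ and 434.5 and 477.4 CPM in ZsGreen+ libraries. The groups overlapped, and the log2 fold change of -0.12 (SE 0.19, edgeR adjusted p = 0.939) had an interval of the fold from 0.679 to 1.25. Its direction turned in TPM (0.03). It was -0.02 without tdTomato+ replicate 2. Nrp2, the neuropilin of veins and lymphatic vessels, stood at 202.6 and 184.9 CPM in tdTomato+ and 136.9 and 170.4 CPM in ZsGreen+ libraries. Both tdTomato+ libraries were higher, also in TPM (60.8 and 51.5 against 32.3 and 47.6), with a log2 fold change of 0.33 (SE 0.19, edgeR adjusted p = 0.739) and an interval of the fold from 0.925 to 1.72. Without ZsGreen+ replicate 1 it was 0.19. Nrp1 over Nrp2 in TPM was 2.06 and 2.10 in tdTomato+ and 3.10 and 2.72 in ZsGreen+ libraries, with no overlap. Nrp1 spans 128358591 to 128505476 on chromosome 8 and Nrp2 62703317 to 62818692 on chromosome 1, both on the plus strand; an annotated microRNA, Mir1903, shares 80 exon bases with Nrp1, and no other exon overlap was found among the 9 genes.

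Nrp2 and Vegfc belong to biology of veins and lymphatics, and markers of these vessels had medians of opposite sign. Of 12 venous markers 3 were called higher (Vcam1, Cpe and Car8) and none lower, with a median log2 fold change of 1.31. The median of arterial markers was also above 0, at 1.38, and 2 of 16 were called higher (Mgp and Fbln2) and none lower. Their estimates were split, with 10 above 0 and 6 below. At an unadjusted p under 0.05, 9 arterial markers were higher and 1 lower (8.77% of all genes). The lower one was Hey1 (-0.60, SE 0.23). Over all genes 0.167% were called higher and 0.137% lower. Of 11 lymphatic markers tested 4 were called lower (Thy1, Fxyd6, Mmrn1 and Reln) and none higher, with a median of -2.03. Leaving out tdTomato+ replicate 1, tdTomato+ replicate 2, ZsGreen+ replicate 1 and ZsGreen+ replicate 2 in turn gave 0, 0, 6 and 1 venous, 1, 0, 5 and 2 arterial and 1, 0, 6 and 3 lymphatic calls, in the same directions. Flt4, the receptor for VEGF-C and one of those 11, stood at 163.6 and 127.7 CPM in tdTomato+ and 318.7 and 281.4 CPM in ZsGreen+ libraries and was not called by edgeR (log2 fold change -1.04, SE 0.20, adjusted p = 0.144), while DESeq2 called it (-1.05, adjusted p = 0.000317). The summed level of the lymphatic list, led by Lyve1, was 743.5 and 1035 CPM in tdTomato+ and 1013 and 1315 CPM in ZsGreen+ libraries. In bulk libraries fewer cells of a type and less RNA per cell cannot be told apart.

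Esm1 encodes endocan, a secreted proteoglycan that is induced by VEGF-A in endothelium and marks tip cells, the leading cells of vessel sprouts. It stood at 20.9 and 20.4 CPM in tdTomato+ libraries and at 13.4 and 14.1 CPM in ZsGreen+ libraries (20.6 ± 0.380 against 13.7 ± 0.553, SD). Both tdTomato+ libraries were higher and each group was tight. The estimate was 0.59 on the log2 scale (SE 0.23), a 1.50-fold difference with an interval of 1.03 to 2.18; its unadjusted p was 0.0367 and its edgeR adjusted p = 0.518, so it was not called. Leaving out any 1 library gave 0.55 to 0.63, and over all alternatives the adjusted p was 0.252 to 1.00. Esm1 has 380 and 388 estimated counts in tdTomato+ and 211 and 258 in ZsGreen+ libraries, the fewest of the 9 genes in 3 of 4 libraries. It spans 113209659 to 113218104 on the plus strand of chromosome 13.

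**Figure D3:**
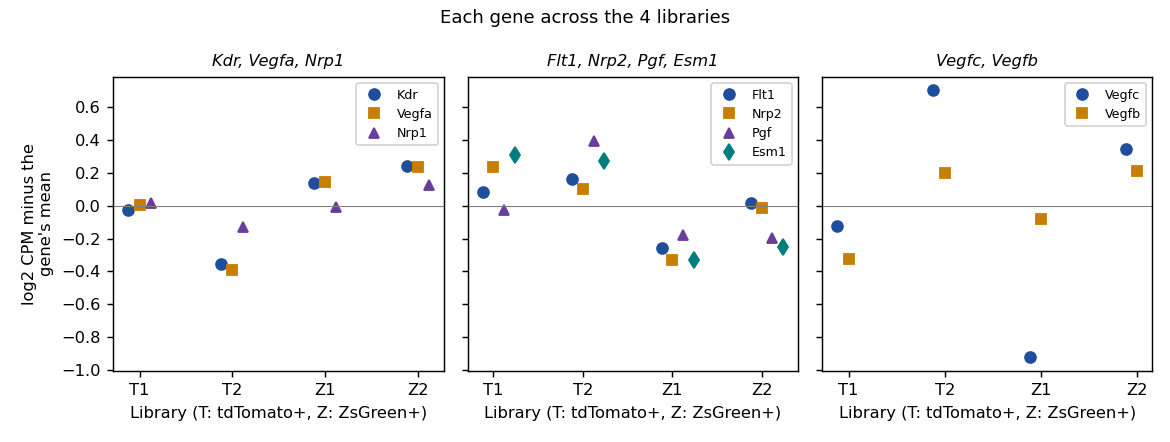
Each VEGF gene in the 4 libraries as log2 CPM minus the gene's own mean; T1 and T2 are the tdTomato+ and Z1 and Z2 the ZsGreen+ libraries. Kdr and Vegfa lie almost on each other in all 4 libraries, while Vegfc is high in T2 and Z2 and low in Z1.

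Kdr and its ligand Vegfa had nearly the same pattern over the 4 libraries. The likeness of 2 genes was taken as the Euclidean distance between their log2 CPM profiles, each centred on its own mean, over 4 libraries that share depth and preparation, so it is a description only. Vegfa was the gene nearest to Kdr among 10158 genes with at least 5 CPM, at a distance of 0.05 against a median of 0.57, and Kdr was the nearest to Vegfa. The next after Vegfa for Kdr were Nhlrc2 and Casz1 (both 0.06). Nearest to Vegfc were Top2a (0.12) and Kif11 (0.13), genes of dividing cells. Nearest to Esm1 were Tspan5, Tob1 and Crim1 (0.07 to 0.08), nearest to Flt1 were Lgals8, Gch1 and Ddx55 (0.04 to 0.05) and nearest to Nrp2 were Plgrkt, Srek1 and Abl2 (0.03 to 0.05). For Pgf the nearest were B4galt3, Mical1 and Ehbp1l1 (0.07 to 0.09), for Vegfb Rasgrp2, Hap1 and Etfdh (0.04 to 0.05), and for Nrp1 Wwox, Nars and Trip4 (0.01 to 0.02).

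Other genes of the pathway also gave few calls, and at 0.304% of all genes few would be called in lists of this size. In a list of 19 further VEGF family and receptor partner genes, edgeR called 0 (0.304% of all genes). At an unadjusted p under 0.05, 4 were higher and 1 lower (8.77% of all genes). DESeq2 called 2, Dab2 higher and Flt4 lower, against 330 of 13177 genes. Beside Flt4 the smallest p were those of Dab2, an endocytic adaptor that takes part in VEGF receptor uptake (0.79, SE 0.18), Ptprj, a receptor tyrosine phosphatase (1.00, SE 0.27), and Itgb3, the integrin beta3 chain (0.68, SE 0.18), all on the log2 scale. Vegfd, the other VEGFR3 ligand, named after its value was seen, was low at 2.41 to 7.92 TPM. Among 45 tested signal transducers edgeR called 0, with 4 higher and 2 lower at an unadjusted p under 0.05 (8.77% of all genes), and the median log2 fold change was -0.05. Nos3, the endothelial nitric oxide synthase that VEGF activates, had 200.5 and 322.4 CPM in tdTomato+ and 107.4 and 137.7 CPM in ZsGreen+ libraries (1.09, SE 0.27; its edgeR adjusted p was 0.231) and was the single DESeq2 call of this list. The kinase gene Src, the phospholipase gene Plcg2 and the GTPase gene Hras, next by p, had log2 fold changes of 1.24, 0.85 and -0.63. Plcg2 was 0.52 without ZsGreen+ replicate 2 and 1.29 without ZsGreen+ replicate 1, where it was the 1 call of this list (edgeR adjusted p = 0.0449), and Hras was -0.39 without tdTomato+ replicate 1.

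Genes that VEGF is known to induce did not move one way. Of 41 tested, 1 was called higher (0.167% of all genes were called higher) and none lower (0.137% of all genes), and the median log2 fold change was 0.09. At an unadjusted p under 0.05, 7 were higher and 6 lower (8.77% of all genes). The call was Vcam1, an adhesion molecule for leukocytes that inflammatory signals also induce, at 294.1 and 275.7 CPM against 83.2 and 58.8 CPM (2.00, SE 0.22; its edgeR adjusted p was 0.0304), and it was not called without tdTomato+ replicate 1 (edgeR adjusted p = 0.0761) or tdTomato+ replicate 2 (0.126). Ptgs2, cyclooxygenase-2, had 107.2 and 95.1 CPM in tdTomato+ and 22.5 and 38.2 CPM in ZsGreen+ libraries (1.74, SE 0.27; its edgeR adjusted p was 0.0865). Ptgs2 was called by DESeq2 (adjusted p = 2.92e-06), and by edgeR with no filter (0.0125), with at least 1 CPM in all libraries (0.0449) and without ZsGreen+ replicate 1 (0.0187) or 2 (0.0458). Nr4a2, an early response nuclear receptor, differed by 1.11 on the log2 scale (SE 0.30), and Apln, the peptide apelin of aerocytes and tip cells, by -0.54 (SE 0.17). The list's median was 0.41 without ZsGreen+ replicate 1, where 5 genes were called, and -0.04 without ZsGreen+ replicate 2.

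Class 3 semaphorins share the neuropilins with VEGF. edgeR called 0 of 12 semaphorin and plexin genes (0.304% of all genes). At an unadjusted p under 0.05, 4 were lower and 0 higher (8.77% of all genes). DESeq2 called those 4 lower, against 125 of 13177 genes called lower. Without ZsGreen+ replicate 1 edgeR called 3 of them lower, Sema3a, Sema3c and Sema3d. The 4 genes were Sema3a at 2.59 and 1.42 CPM against 10.1 and 16.4 CPM (-2.72, SE 0.46, edgeR adjusted p = 0.101), Sema3d (-2.41, SE 0.65), Sema3c (-1.72, SE 0.39) and the neuropilin partner Plxna1 (-0.77, SE 0.20). Sema3c was at 118.3 and 288.4 CPM within the ZsGreen+ group, and without ZsGreen+ replicate 2 the log2 fold change was -0.94 for Sema3c and -1.37 for Sema3d. Sema3a and Sema3d lay at or under 4.46 TPM in every library.

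Vegfa is a target of hypoxia-inducible factors (HIF), and edgeR called none of 23 other HIF targets tested (0.304% of all genes were called), while 2 were called lower without ZsGreen+ replicate 1. At an unadjusted p under 0.05, 8 were lower and 0 higher (8.77% of all genes passed). Of the 23 estimates 6 lay above 0 and 17 below, while 6491 of all 13177 genes had estimates above 0. DESeq2 called 2 lower, Bnip3 and Ankrd37, against 125 of 13177 genes called lower. The median log2 fold change was -0.32 against -0.01 over all genes, and -0.33 to -0.38 when 1 library was left out. Bnip3, a mitophagy receptor, had -0.88 (SE 0.20), Ankrd37 -1.10 (SE 0.28), the oxygen sensor Egln1 -0.86 (SE 0.30) and the glycolytic Aldoa -0.54 (SE 0.19).

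**Figure D4:**
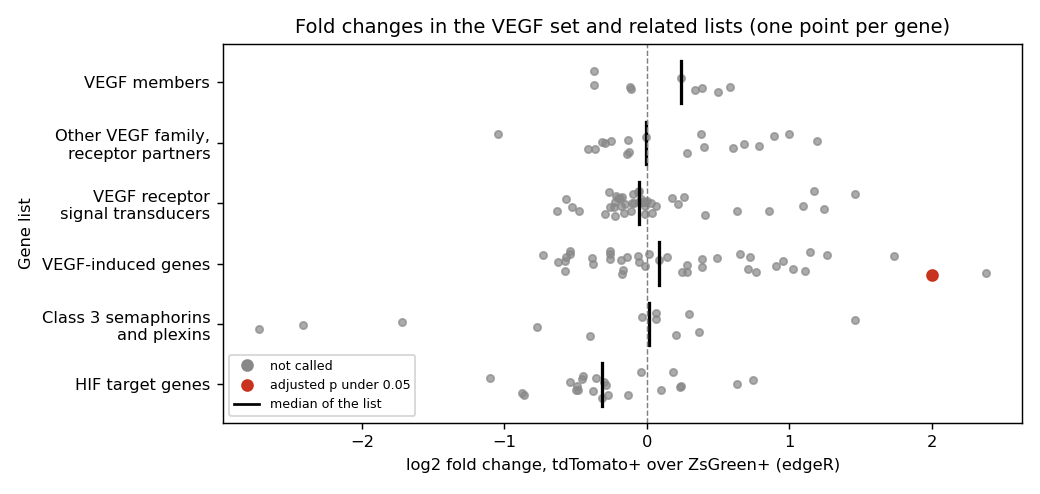
Log2 fold change (tdTomato+ over ZsGreen+, edgeR) of each tested gene in the VEGF set and 5 related lists; red marks an adjusted p under 0.05 and the black line a list's median. The single red point is Vcam1 at 2.00, and the VEGF set spans -0.37 to 0.59.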

How the data were processed

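RNA of sorted lung endothelial cells was amplified over the whole transcriptome from less than 4 µL and sequenced as 2 libraries per group, per the labels' protocols; amplification can add spread, and no molecular identifiers are named. Per the submitters' processing notes, RSEM 1.3.1 and DESeq2 1.4.5 were used with GRCm38 (mm10); strandedness and aligner were not given in the sources used here. As deposited, the authors supplied estimated counts (not whole for 16.2% to 17.9% of values), FPKM, TPM and normalized counts, a signal close to the count times 1 factor per library.

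Estimated counts were rounded and compared with edgeR 4.0.16 (R 4.3.3; quasi-likelihood F-test, two-sided, TMM, filterByExpr with a minimum count of 10, Benjamini-Hochberg over 13177 genes). The SE follows from the F value (absolute log2 fold change divided by the square root of F), and 95% intervals use edgeR's total degrees of freedom. Levels of different genes are compared in TPM. The scripts were tested on simulated data. Groups and replicate numbers come from the titles. Other settings tried were the factors RLE and upper quartile, limma-voom (limma 3.58.1), DESeq2 1.42.0, no filter, at least 1 CPM in all libraries, each library left out, a replicate block, and limma with trend on log2(TPM + 1) and log2(TPM + 0.1) over genes at 1 TPM or more in 2 libraries.

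The members and the 23 other gene lists (5 of the pathway, 18 of cell type markers, each without the members) were chosen with earlier results of these data known. Named are all members, Acta2, up to 4 genes per pathway list and 3 per marker list (smallest p, mean at or above 1 CPM), and the 3 genes most like each member (1 of them is not reported here); other names were chosen after their values were seen, among them genes singled out as calls. Gene spans are those of the deposited table and RefSeq, which were the same for all 9 members; promoters are RefSeq's, found for all 9.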

Additional observations from a re-analysis of the deposited data

How the results depend on the processing

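None of the 13 alternatives called any of the 9 VEGF genes. The count over all genes was 330 with DESeq2, 128 with no filter on low counts, 61 with at least 1 CPM in all libraries, 22 with log2(TPM + 0.1) and 4 to 304 when 1 library was left out; the lone library of a group is then assumed to vary like the other group. With the replicate block it was 934, and Vegfc, which lay higher in the library numbered 2 of each group, had a log2 fold change of 0.57 (SE 0.22, edgeR adjusted p = 0.115). Deviations from the group means of same-numbered libraries had a correlation of 0.45 over genes; the labels do not say that the numbers pair the libraries. Of 117 member fold changes, 6 turned direction: Nrp1 was 0.0338 with log2(TPM + 1) and 0.0342 with log2(TPM + 0.1), Vegfb was 0.0227 and 0.0235, and Vegfb ran from -0.38 to 0.12 when 1 library was left out. The cause was not tested. TPM moved the median over all genes to 0.12 on the log2 scale, against -0.01 in counts; relative to it Kdr (-0.23) and Vegfa (-0.20) lay lower and Flt1 (0.45) higher, as in counts. The members' median was 0.45 on that scale. In the deposited normalized counts Nrp1 also lay below both ZsGreen+ libraries in both tdTomato+ libraries. Of 299 counts of called genes in the other lists, 75 moved by over 1.5 times or from or to 0. Intervals of the members' folds are wide with 2 libraries per group.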
